A study of Rattus norvegicus with 6 samples.

Results

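Meg3, Cdkn1c, Grb10, Dlk1, Plagl1 and Ndn are imprinted genes, and their RNA levels were compared in the aortae of hypertensive and control rats. A list of 9 imprinted genes was searched for on the array, and a gene was kept where the platform annotation gives a probe set that gene and no other. These 6 genes were found, each with 1 probe set, among 28879 probe sets and 18166 named genes in all. Peg3 and Mest were not named by any probe set in the annotation used here, and the probe set that names H19 names the microRNA gene Mir675 as well, so no level could be assigned to H19. The genes were proposed with results of this strain comparison known, among them the low level of Meg3 in the hypertensive strain, so their strain differences are given as descriptions, and where the fit over all probe sets is counted for them nothing is read from the count.

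The study measured total RNA from the thoracic aorta on Affymetrix Rat Gene 2.0 ST arrays. The groups were spontaneously hypertensive rats (SHR), an inbred strain with high blood pressure, and Wistar-Kyoto rats (WKY), a normotensive strain of the same origin. All rats were 24 weeks old, had no treatment beyond a measurement of tail pressure, and gave 3 arrays per strain. The aortae had been cleaned of fat and connective tissue, per the labels. Whether the 3 arrays of a strain came from separate animals is not stated, so the p-values below reflect how far these arrays differ from each other, a spread that may be technical. Levels are log2 values on which 1 unit is a doubling of signal.

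At an imprinted gene, the copy inherited from only one parent is active. In mouse, Meg3, H19, Cdkn1c and Grb10 are expressed mainly from the maternal copy, and Dlk1, Peg3, Plagl1, Mest and Ndn from the paternal copy. The genes act in fetal growth and in the control of cell division and differentiation, and many are turned down after birth. Plagl1, a zinc finger transcription factor, is known to regulate several of the others, which have been described as a network. The arrays do not tell parental copies apart, so these data give levels and not imprinting.

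The arrays were of unequal make-up, and this bears on several values below. WKY replicate 3 had the highest median level over all probe sets, 2.52 against 2.29 to 2.33 on the other 5 arrays, and the smallest SD over probe sets, 2.12 against 2.22 to 2.27. Smooth muscle markers, the expected main cells of the vessel, had mean levels from 9.22 to 9.54 on all arrays (8 of 10 listed genes measured). White adipocyte markers (12 of 12) averaged 8.12, 6.26 and 4.40 on the SHR arrays, in the order of their replicate numbers, against 8.01, 6.43 and 6.59 in WKY. The mean of 9 measured markers of sympathetic neurons and Schwann cells, of 12 listed, was 5.08 on SHR replicate 1 and from 2.37 to 2.67 on the other 5 arrays. On SHR replicate 1 Th, which makes the precursor of noradrenaline, lay at 5.92 and the synaptic gene Snap25 at 7.61, while the other 5 arrays had Th between 1.13 and 1.68 and Snap25 between 1.37 and 2.29. Dbh, Stmn2, Ddc and Gap43 were likewise highest on SHR replicate 1. Chga (2.46, against at most 2.42 elsewhere) and S100b (6.57, against at most 6.05) stood out less there. Sox10 was highest on WKY replicate 3, at 3.47 against 3.29 on SHR replicate 1. In such tissue, fewer cells of a type and less RNA per cell cannot be told apart.

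Over the whole set, 5 of the 6 genes had a lower mean in SHR than in WKY, and Plagl1 had a higher one. The differences, SHR minus WKY, ran from -0.46 (Ndn) to 0.09 (Plagl1), with a median of -0.20 against -0.01 over all 21659 tested probe sets. In the limma fit over all probe sets, 52% had a difference below 0. At an adjusted p under 0.05, 0 of the 6 genes passed, and 1 had an unadjusted p under 0.05. The rates over all tested probe sets were 0.0693% and 5.55%.

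**Figure D1:**
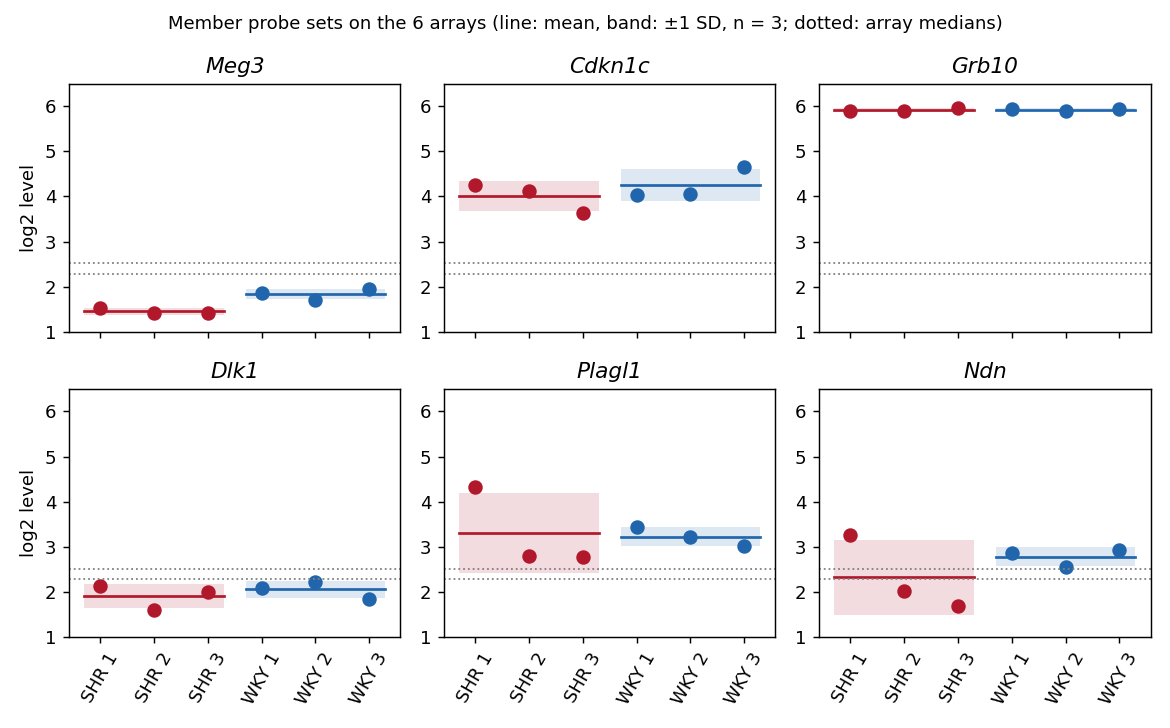
Log2 level of the 6 imprinted genes on each array (red, SHR replicates 1 to 3; blue, WKY replicates 1 to 3), with the strain mean (line), ±1 SD (band, n = 3) and the lowest and highest array median, 2.29 and 2.52 (dotted). The 3 SHR points of Meg3 lie below the 3 WKY points, Grb10 is flat, and Plagl1 and Ndn have 1 high SHR point, that of SHR replicate 1.

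Meg3 is a long non-coding RNA with growth-suppressing activity in many cultured cells. Its levels, given here and below for replicates 1 to 3 in turn, were 1.54, 1.42 and 1.41 in SHR and 1.85, 1.71 and 1.94 in WKY. The strains did not overlap: the highest SHR array lay below the lowest WKY array. Such a gap with SHR lower was seen in 5.61% of all tested probe sets. The means were 1.46 ± 0.07 in SHR and 1.83 ± 0.12 in WKY (SD, n = 3), and the fitted difference was -0.38 ± 0.14 (SE).

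Every Meg3 value lay below the median of its own array. Olfactory receptor genes are not expected to be active in aorta, and 113 of their 1197 probe sets had a mean at or above that of Meg3. Meg3 is therefore not shown to lie above background in either strain, and its difference is one of measured levels and not an estimate of a fold in RNA. WKY replicate 3, the array with the highest median, also had the highest Meg3 level, and without it the difference was -0.33. Leaving out each of the other arrays gave differences from -0.44 to -0.36.

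Cdkn1c encodes p57, an inhibitor of cyclin-dependent kinases that holds cells out of the cell cycle. It lay at 4.26, 4.13 and 3.63 in SHR and at 4.04, 4.06 and 4.66 in WKY, above the array medians throughout. The strains overlapped, with SHR replicates 1 and 2 above WKY replicates 1 and 2. The means were 4.004 ± 0.33 and 4.25 ± 0.35 (SD, n = 3), and the difference of -0.25 ± 0.24 (SE) was about as large as its error. It rested on the lowest and the highest array, being -0.06 without SHR replicate 3 and -0.04 without WKY replicate 3.

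Grb10 encodes an adaptor that dampens signalling from the insulin and insulin-like growth factor receptors. Its levels were 5.89, 5.90 and 5.96 in SHR and 5.94, 5.89 and 5.95 in WKY. All 6 arrays lay within 0.07 of each other, and 0.0369% of the tested probe sets had a smaller SD over the 6 arrays. The fitted difference was -0.01 ± 0.13 (SE), and it had no settled direction, at -0.08 after a further quantile normalization and 0.04 after centring each array on its median. None of the 1197 olfactory receptor probe sets reached its mean.

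Dlk1 encodes a membrane protein of the Notch ligand type that keeps precursors of adipocytes from maturing. Its levels were 2.13, 1.61 and 1.99 in SHR and 2.09, 2.23 and 1.85 in WKY, all below the median of their own array. The strains overlapped, and the lowest value was that of SHR replicate 2. The difference was -0.15 ± 0.19 (SE), and 0.00 without SHR replicate 2. Of the olfactory receptor probe sets, 70 had a mean at or above that of Dlk1, so it too is not shown to lie above background.

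Plagl1 lay at 4.34, 2.81 and 2.78 in SHR and at 3.43, 3.22 and 3.01 in WKY. SHR replicate 1 stood 0.90 above the next highest array, while the other SHR arrays were the lowest of all. The SHR mean of 3.31 ± 0.89 (SD, n = 3) hence hides arrays on either side of the WKY mean of 3.22 ± 0.21. The difference of 0.09 ± 0.41 (SE) turned to -0.43 without SHR replicate 1 and to -0.02 without WKY replicate 3, and it was -0.53 without both arrays.

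Ndn encodes necdin, a growth suppressor that is abundant in neurons after their last division. It lay at 3.26, 2.02 and 1.69 in SHR and at 2.88, 2.55 and 2.93 in WKY. SHR replicate 1 was again the highest of the 6 arrays, and SHR replicates 2 and 3 were the lowest. The means were 2.32 ± 0.83 and 2.78 ± 0.21 (SD, n = 3), with a difference of -0.46 ± 0.39 (SE). Without SHR replicate 1 the difference was -0.93, and without SHR replicate 3 it was -0.14. The levels on SHR replicates 2 and 3 lie below their array medians, so the size of the difference is not an estimate of a fold in RNA. Olfactory receptor probe sets with a mean at or above that of Ndn numbered 38, against 11 for Plagl1 and 2 for Cdkn1c.

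The array on which Plagl1 and Ndn were highest, SHR replicate 1, was also the one with high neuronal markers. It had the highest white adipocyte, adipocyte progenitor, endothelial, adventitial fibroblast and macrophage means too. WKY replicate 1 came close for white adipocytes (8.01 against 8.12) and endothelium (5.88 against 5.89). There Plagl1 was 3.43 against 4.34 on SHR replicate 1, and Ndn 2.88 against 3.26. For brown adipocytes SHR replicate 1 had a mean of 4.66, below the 5.66 of WKY replicate 1. SHR replicate 3, where Plagl1 and Ndn were lowest, had the lowest mean of each of these lists. Not every marker followed the list means. The brown adipocyte marker Ppargc1a was highest on SHR replicate 3, at 5.40. The fibroblast markers Col1a1, Col1a2 and Col3a1 were higher there than on SHR replicate 1, at 9.09 against 8.98 for Col1a1. Pdgfra is on both the progenitor and the fibroblast list. Endothelial markers (8 of 10 measured) had means from 3.95 to 5.89 in SHR and from 5.16 to 5.88 in WKY. Macrophage markers (10 of 10) ran from 3.47 to 5.78 in SHR and from 4.30 to 5.203 in WKY. When the white adipocyte mean entered the fit as a covariate, the difference of Ndn was -0.18 and that of Plagl1 0.37, against -0.46 and 0.09 without it. For Meg3 it was -0.35 against -0.38. The part of neuronal or other cells in the levels of Plagl1 and Ndn was not tested.

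**Figure D2:**
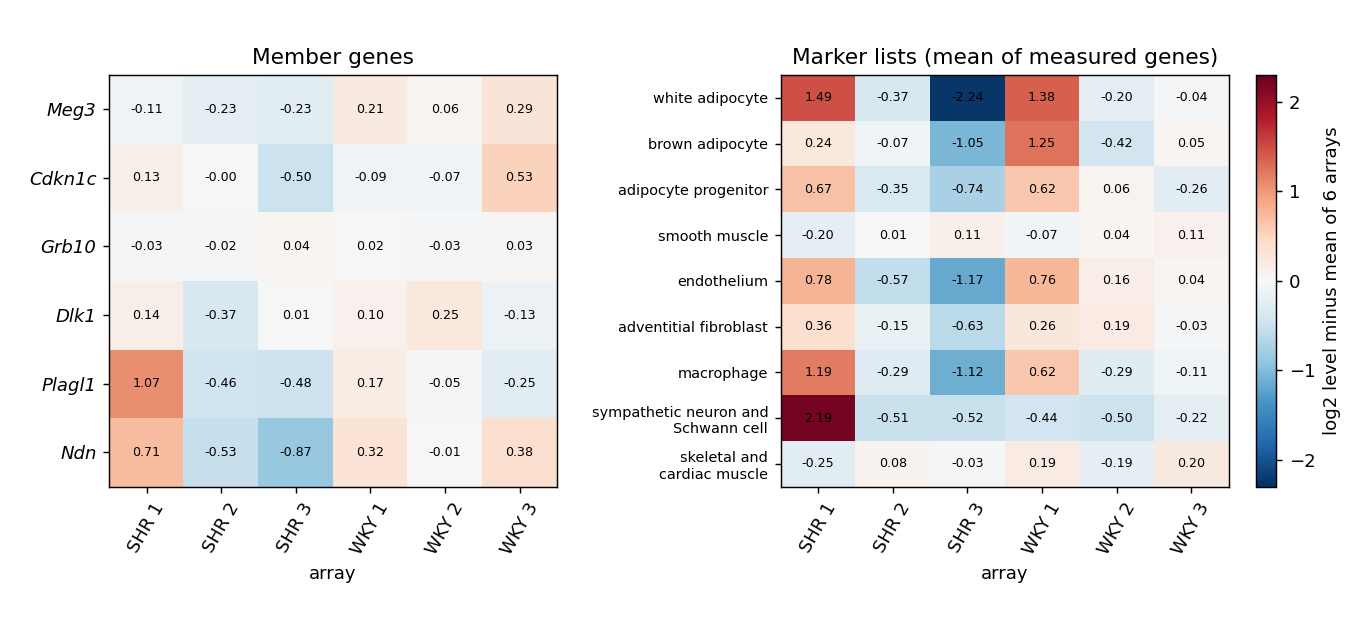
Left, the log2 level of each imprinted gene on each array minus its mean over the 6 arrays; right, the same for the mean of each marker list. SHR replicate 1 is high for Plagl1 (1.07) and Ndn (0.71) and for neuron and Schwann cell (2.19) and white adipocyte markers (1.49). SHR replicate 3 is low for Ndn (-0.87) and white adipocyte markers (-2.24). The farthest of Meg3, Grb10 and Dlk1 is Dlk1 on SHR replicate 2 (-0.37).

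The genes also differed in how much they varied over the 6 arrays, whatever the strain. The median SD over the 6 arrays was 0.25 for all tested probe sets. Ndn (0.60), Plagl1 (0.58) and Cdkn1c (0.33) varied more than that, and Meg3 and Dlk1 (0.22 each) and Grb10 (0.03) less. The set did not share a highest array. This was WKY replicate 3 for Meg3 and Cdkn1c, WKY replicate 2 for Dlk1, SHR replicate 3 for Grb10 and SHR replicate 1 for the other 2. The lowest array was shared more: it was SHR replicate 3 for 4 of the 6, Meg3, Cdkn1c, Plagl1 and Ndn. For Meg3 SHR replicate 2 was close to it (1.42 against 1.41). Dlk1 was lowest on SHR replicate 2 and Grb10 on SHR replicate 1.

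For Meg3, the genes with the most similar pattern were found from the root mean square distance between log2 values centred on each gene's mean over the 6 arrays. The nearest were the ephrin receptor gene Epha1 (distance 0.04), Mccc1, a subunit of an enzyme of leucine breakdown (0.04), and the muscle gene Xirp2 (0.04). Of these only Mccc1 lay above the array medians, at 4.86, 4.82 and 4.72 in SHR and at 5.18, 4.998 and 5.30 in WKY. The likeness is a description over 6 arrays.

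Meg3 and Dlk1 are neighbours on rat chromosome 6, at the start of a domain whose maternal transcripts also carry a long row of microRNAs. Mir770 lies inside Meg3. Of 54 microRNA genes listed for the loci of Meg3, H19 and Mest, 43 had a probe set, all of them in the chromosome 6 row. The probe sets of 37 of the 43 lay below the median of their array on all 6 arrays, and those of Mir770 and Mir665 lay above it on all 6. What stretch of each precursor the probe sets read is not given in the sources used here, and mature microRNAs were not measured as such.

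Mature sequences are shown for the microRNA hosted by Meg3 and for the 4 microRNA genes with the smallest unadjusted p of the row. They are from RefSeq on GRCr8, with the seed (bases 2 to 8), the part that pairs with targets, in capitals.
miR-770-5p: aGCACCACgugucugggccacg
miR-770-3p: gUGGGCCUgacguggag
miR-665: aCCAGGAGgcugaggucccuua
miR-134-5p: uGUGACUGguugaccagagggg
miR-134-3p: cUGUGGGCcaccuagucaccaa
miR-758-5p: uGGUUGACcagagagcacacg
miR-758-3p: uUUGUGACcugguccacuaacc
miR-485-5p: aGAGGCUGgccgugaugaauuc
miR-485-3p: cAUACACGgcucuccucucuuc
None of these seeds is shared within the row. Over its 83 mature sequences in RefSeq, from 45 of the listed genes, there were 78 different seeds, of which 4 were held by more than 1 sequence.

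Mir770 lay at 3.97, 3.93 and 3.93 in SHR and at 3.66, 3.60 and 4.86 in WKY. The SHR arrays were nearly equal, and the WKY arrays lay on either side of them. Its difference was -0.10, and 0.31 without WKY replicate 3. Mir665 lay at 2.67, 2.96 and 2.66 in SHR and at 2.99, 2.996 and 3.64 in WKY, without overlap, with a difference of -0.45 ± 0.22 (SE; limma adjusted p = 0.923).

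Of the 43 microRNA genes, 13 were bright enough to be tested, and 0 passed in limma, also at an unadjusted p under 0.05 (5.55% of all tested probe sets). Their median difference was -0.12, with 11 of 13 below 0, against 52% of all tested probe sets. The median depended on single arrays. It was -0.04 when WKY replicate 3 was left out, and -0.21, -0.23 and -0.25 when SHR replicate 2, WKY replicate 1 or WKY replicate 2 was left out instead. The differences of Mir758, Mir134 and Mir485 were -0.51, -0.40 and -0.23, each with a limma adjusted p of 0.923. WKY replicate 3 had the highest level for these 3 and for Mir665, and without it the differences were -0.18 for Mir758, -0.14 for Mir485 and -0.23 for both Mir134 and Mir665. Mir134 and Mir485 lay below the array medians on all 6 arrays, with 82 and 150 olfactory receptor probe sets at or above their means, and are not shown to lie above background. Mir758 lay above the array median on 4 of 6 arrays, with 43 such probe sets at or above its mean. Dio3, the thyroid hormone deiodinase at the far end of the domain, differed by -0.02 ± 0.25 (SE), and by 0.23 without WKY replicate 3. Dio3 lay above the array median on 2 of 6 arrays, with 61 olfactory receptor probe sets at or above its mean, and is not shown to lie above background.

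**Figure D3:**
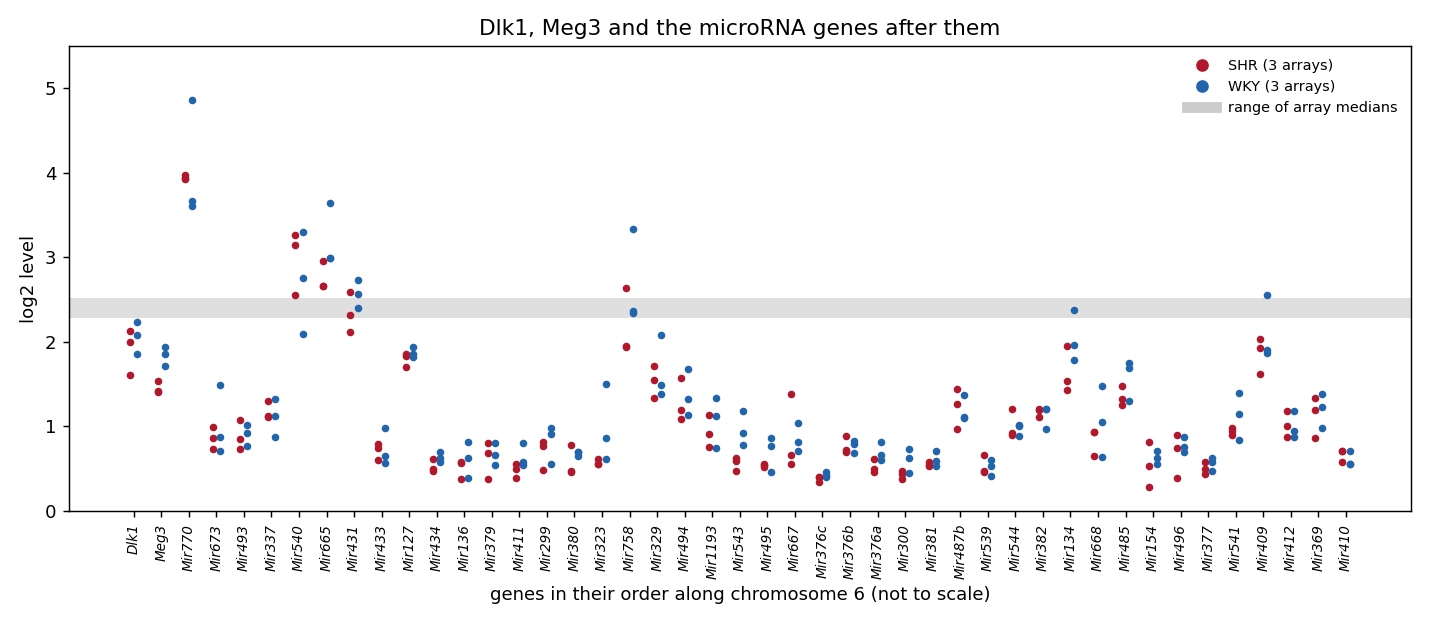
Log2 level of Dlk1, Meg3 and 43 microRNA genes on each array (red, SHR; blue, WKY), in gene order along chromosome 6, with the range of the array medians as a grey band. Most points lie under the band on all arrays and Mir770 lies above it. The high WKY point of Mir770 and that of Mir758 are those of WKY replicate 3.

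The other members lie in imprinted domains whose further genes were measured too, and these are named here for their position. Beside Cdkn1c on chromosome 1, Kcnq1, a potassium channel gene, differed by -0.33 ± 0.27 (SE), Phlda2, a brake on placental growth, by -0.32 ± 0.25, the transporter gene Slc22a18 by -0.05 ± 0.16 and the histone chaperone gene Nap1l4 by 0.01 ± 0.13. Kcnq1 and Phlda2 were at -0.06 and -0.13 without SHR replicate 1. Slc22a18 was at 0.01 without SHR replicate 2, and Nap1l4 at -0.03 without WKY replicate 1. Tssc4, which lies beyond Kcnq1, differed by -0.002 ± 0.21, and by 0.22 without WKY replicate 3. Beside Ndn on the same chromosome, Magel2, Mkrn3 and Peg12 lay below the array medians on all 6 arrays, with differences of -0.14, 0.05 and -0.25. Without WKY replicate 3 Peg12 was at -0.03, and without SHR replicate 3 Magel2 and Mkrn3 were at -0.05 and -0.04. These 3 neighbours are not shown to lie above background. Around Grb10 on chromosome 14, Cobl, an actin nucleator, differed by 0.06 ± 0.15, and by -0.05 without SHR replicate 3. Ddc, which makes dopamine and lies on the other side of Grb10, differed by 0.64 ± 0.40, and by 0.13 without SHR replicate 1.

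H19 itself had no level here, but its neighbour Igf2, the fetal growth factor gene of the paternal copy, was measured. Igf2 lay at 3.90, 3.17 and 3.16 in SHR and at 4.08, 3.93 and 3.82 in WKY, with SHR replicate 1 inside the WKY range. The difference was -0.53 ± 0.23 (SE; limma adjusted p = 0.902), and -0.77 without SHR replicate 1. Igf2r, the maternally expressed receptor that clears this factor, lay at 7.64, 7.89 and 8.11 in SHR and at 7.37, 7.49 and 7.03 in WKY, without overlap, and differed by 0.58 ± 0.19 (limma adjusted p = 0.761).

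In all, 58 other imprinted genes were listed, 42 had a probe set of their own and 41 were tested. The list was written from general knowledge of imprinting in mouse. Whether these genes are imprinted in rat aorta was not tested. In limma 0 passed, and 1, Igf2r, had an unadjusted p under 0.05. That is 2.44% of the 41, against 5.55% of all tested probe sets. The median difference was -0.01, as over all tested probe sets, with 18 genes above 0 and 23 below. The strains did not overlap for 6 of the 41, or 14.6%, against 12.1% of all tested probe sets.

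Among the 13 tested genes of the paternal copy, the smallest unadjusted p after Igf2 was that of Nnat, a small membrane protein of neurons and fat. Nnat lay at 6.57, 5.04 and 4.84 in SHR and at 4.37, 4.75 and 4.43 in WKY, all SHR arrays above all WKY arrays. Its difference of 0.96 ± 0.43 (SE; limma adjusted p = 0.919) was 0.42 without SHR replicate 1. The histone chaperone relative Nap1l5, not among the 4 with the smallest p, showed the same high array, at 4.04 on SHR replicate 1 and from 2.23 to 2.73 on the others. Ddc, the neighbour of Grb10, lay at 3.19 on SHR replicate 1 and from 1.44 to 1.72 on the others. Th and Ddc stand on the list of neuron and Schwann cell markers as well. The difference of Nap1l5, 0.58, was 0.07 without SHR replicate 1. Sfmbt2, a Polycomb group gene, lay below the array medians on all 6 arrays and differed by 0.26 ± 0.15.

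Among the 28 tested genes of the maternal copy, those next to Igf2r by unadjusted p were Slc22a2, a transporter of organic cations (-0.51 ± 0.23, SE), Htr2a, the serotonin receptor of smooth muscle (0.56 ± 0.25), and Ascl2, a transcription factor of the placenta (-0.38 ± 0.17). Htr2a was at 0.32 without SHR replicate 3. The limma adjusted p of the 3 lay at 0.919 to 0.921. Ascl2 lay below the array medians on all 6 arrays. The difference of Th, 1.58 ± 1.09, was 0.12 without SHR replicate 1.

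**Figure D4:**
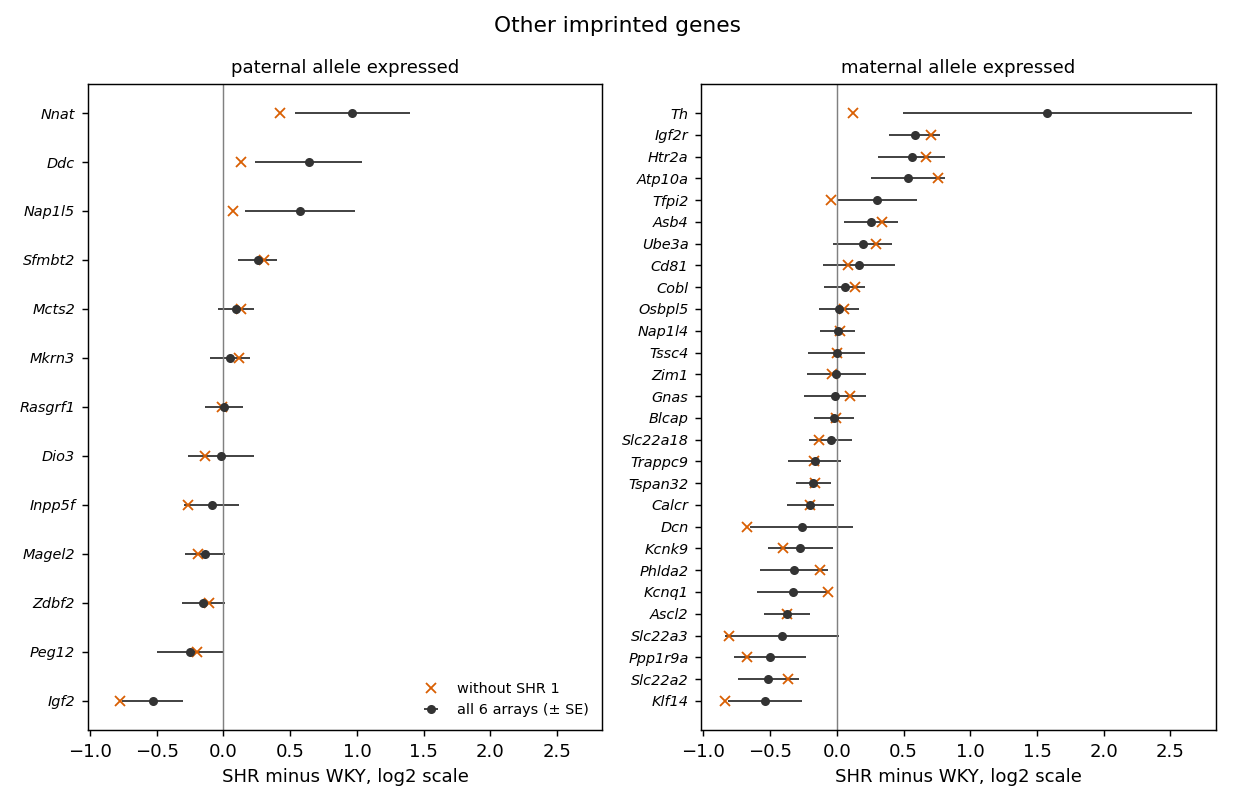
Difference SHR minus WKY (log2 scale) of 41 other imprinted genes, grouped by the parental copy known to be active in mouse, with all 6 arrays (points, bars ±1 SE) and without SHR replicate 1 (crosses). The crosses of Nnat, Ddc, Nap1l5 and Th lie nearer 0 than the points, at 0.42, 0.13, 0.07 and 0.12.

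Meg3 is known to bind Polycomb repressive complex 2. Genes of that complex were listed as well, with genes that set, keep or remove DNA methylation or help to keep imprints. Of 25 genes 21 were tested, 0 passed in limma and 2 had an unadjusted p under 0.05, both lower in SHR, with a median difference of 0.00. That is 9.52% of the 21, against 5.55% of all tested probe sets, and the strains did not overlap for 14.3%, against 12.1%. Tet1, which oxidises methylated cytosine, lay at 2.67, 3.14 and 3.48 in SHR and at 3.64, 4.39 and 3.78 in WKY, without overlap, and differed by -0.84 ± 0.27 (SE; limma adjusted p = 0.758). Dnmt3a, which sets new methylation, differed by -0.37 ± 0.16 (limma adjusted p = 0.899). Arid4a and Dppa3, next by unadjusted p, differed by -0.16 and -0.23. Dppa3 lay below the array medians on all 6 arrays and was at -0.06 without SHR replicate 1. Ctcf, the insulator protein of the H19 domain, differed by 0.20 ± 0.24, and by -0.06 without WKY replicate 3. Trim28 differed by -0.05 ± 0.15, with a sign that turned without WKY replicate 2, and Dnmt1 by -0.08 ± 0.14, or -0.02 without WKY replicate 1. The Polycomb genes Ezh2 and Eed differed by 0.16 ± 0.21 and 0.04 ± 0.13, and Ezh2 by -0.05 without SHR replicate 3. Ezh1, listed with them, differed by -0.20 ± 0.21, and by -0.07 without WKY replicate 1. Rbbp4 and Rbbp7 differed by 0.10 ± 0.17 and 0.12 ± 0.19, and Rbbp7 by -0.04 without WKY replicate 3.

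Promoter sequences, which did not enter the choice of the genes, were taken from RefSeq for 5 of the 6 genes, as 300 bases from 250 before to 50 after the gene's start on GRCr8. CpG pairs are sites of DNA methylation, and whether these promoters are methylated or carry an imprint was not tested. CpG pairs numbered 45 in Dlk1, 44 in Grb10, 29 in Plagl1, 14 in Ndn and 13 in Meg3, against a median of 7 over 33469 promoters. The promoters of Meg3 and Dlk1 are shown because these neighbours, one active on each parental copy, differed most in CpG. CpG pairs are in capitals, the Meg3 sequence is chr6:134273806-134274105 and the Dlk1 sequence chr6:134192347-134192646, both on the plus strand.
Meg3 promoter: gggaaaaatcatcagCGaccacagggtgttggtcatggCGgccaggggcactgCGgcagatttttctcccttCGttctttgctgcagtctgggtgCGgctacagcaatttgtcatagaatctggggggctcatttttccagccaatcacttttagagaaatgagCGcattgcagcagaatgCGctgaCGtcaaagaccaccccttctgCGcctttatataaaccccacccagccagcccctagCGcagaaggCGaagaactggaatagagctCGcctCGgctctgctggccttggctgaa
Dlk1 promoter: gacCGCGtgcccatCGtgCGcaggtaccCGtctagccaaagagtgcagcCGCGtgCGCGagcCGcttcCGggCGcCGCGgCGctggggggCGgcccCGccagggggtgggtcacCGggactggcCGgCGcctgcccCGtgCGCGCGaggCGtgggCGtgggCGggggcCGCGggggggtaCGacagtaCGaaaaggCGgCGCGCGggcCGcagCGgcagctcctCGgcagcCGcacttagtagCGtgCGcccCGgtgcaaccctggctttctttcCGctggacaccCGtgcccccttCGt
Fewer CpG than in Meg3 were found in 64.7% of all promoters, and fewer than in Dlk1 in 98.3%. The motif GGGGCC, of the GC-rich kind that Plagl1 binds, was searched on both strands, and as the reverse complement GGCCCC is a different word, no match was counted on both. It was found in 3 of the 5 promoters, those of Grb10, Dlk1 and Plagl1, and in 22.4% of all promoters. Among promoters with 13 or more CpG the share was 41.0%. The 3 promoters with the motif held 29 to 45 CpG, and the share among promoters that rich was not computed. A match is a description of letters and not a binding site.

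The strain differences of the 6 genes were recomputed under other settings of the fit and with arrays left out. Over 14 alternative settings Meg3 stayed between -0.44 and -0.33, and over 15 settings Ndn ranged from -0.93 to -0.14 and Cdkn1c from -0.37 to -0.04, each below 0 in all. Dlk1 was below 0 in 13 of 14 settings. Plagl1 was below 0 in 4 of 15 and Grb10 in 11 of 15. The counts include settings that cannot change the difference of a gene. These are the replicate block, the fit without filter, the filter at the 50th percentile and the trend and robust prior. For Meg3 the strains did not overlap, so leaving out or weighting arrays could not turn its sign. Its constant sign under those settings is therefore no further support for a difference.

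**Figure D5:**
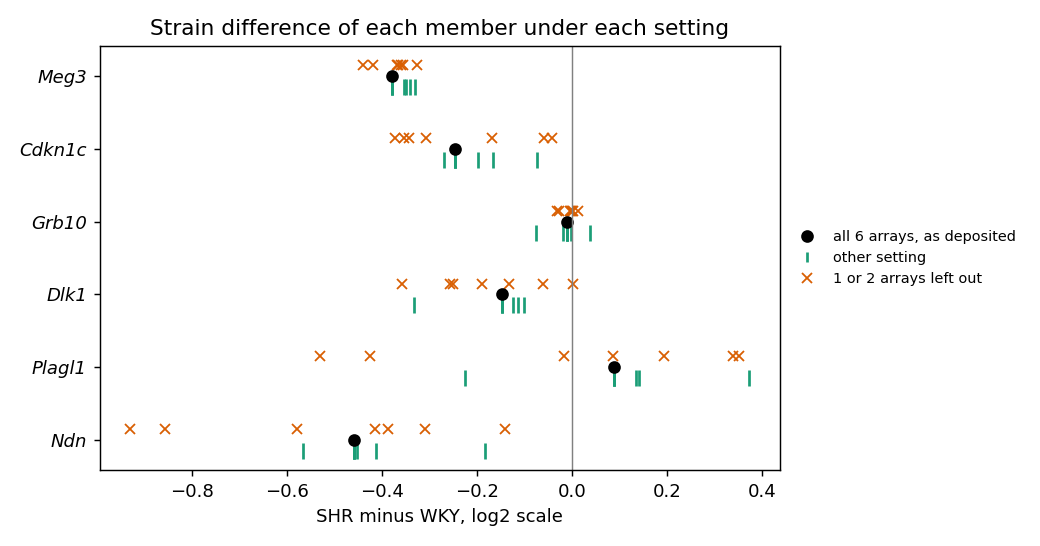
Difference SHR minus WKY (log2 scale) of each imprinted gene with all 6 arrays as deposited (black), under other settings of the fit (green ticks) and with 1 or 2 arrays left out (orange crosses). Meg3 spans -0.44 to -0.33, while Ndn spans -0.93 to -0.14 and Plagl1 lies on either side of 0.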

How the data were processed

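RNA levels were measured on 6 arrays, 3 of SHR and 3 of WKY, with strain and replicate number taken from the sample titles. The authors deposited log2 values per probe set, and per the submitters' processing notes these come from RMA, run in Affymetrix Expression Console 1.2.1. RMA removes background, brings the arrays to a common distribution and combines the probes of each set. The log2 base follows from RMA and the range of the values, and the sources used here do not name an annotation version or a genome build. That table has no detection call, and for arrays their number limits the precision.

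The platform annotation gives a single gene symbol to 18511 probe sets, which were named, and several to 575, which were not. It does not list 9793. Entrez identifiers matched 18394 to the RefSeq table of GRCr8, used for names and gene order. Where RefSeq has renamed olfactory receptor genes from Olr to Or symbols, both kinds were taken.

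Probe sets with a mean at or above the 25th percentile (log2 level 1.17) were fitted in limma (version 3.58.1, R 4.3.3; lmFit and eBayes), with strain as the only term and Benjamini-Hochberg adjustment over all 21659. Passing means an adjusted p under 0.05, two-sided. The fit was tested on simulated data. A listed gene with several tested probe sets was represented by the brightest. Of each list, the 4 genes with the smallest unadjusted p are named, and others for their position or array pattern, chosen after their values were seen. The pattern search was planned for H19 too, which has no probe set of its own. The genes, lists and settings were chosen with earlier results of these data known.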

Additional observations from a re-analysis of the deposited data

How the results depend on the processing

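The number of probe sets passing over the whole array, 15, was the least stable value. It was 3 with the replicate block, 65 with array weights, 115 without SHR replicate 1 and WKY replicate 3 together, 30 at an adjusted p under 0.1, and from 2 to 5 when each array was left out in turn. The other settings left it within 1.5 times of 15. Same-numbered arrays did not all deviate together: their deviations from the strain means correlated at 0.35, -0.08 and 0.23 for numbers 1 to 3, and SHR replicate 2 correlated best with WKY replicate 3, so the numbers are not taken as pairs. Of the other imprinted genes, the methylation, imprint and Polycomb genes and the microRNAs, none passed in limma in any of the 16 alternatives. Their median differences ranged from -0.03 to 0.03, from -0.06 to 0.05 and from -0.25 to -0.03, and that of the 6 genes from -0.40 to -0.10. Taking the mean over the probe sets of a gene was run for the other imprinted genes only and is within their range. With the filter at the 50th percentile Meg3 and Dlk1 were too dim to be tested and have no value. No group had 4 or more arrays, so no array was tested as an outlier.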

Other observations

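Probe set 17638618, which the annotation gives to H19 and Mir675 together, cannot be assigned to either gene and entered no comparison. It lay at 2.06, 1.84 and 1.68 on SHR replicates 1 to 3 and at 2.19, 1.91 and 1.86 on WKY replicates 1 to 3, so the strains overlapped and all 6 values were below the array medians of 2.29 to 2.52.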
